A study of Mus musculus with 12 samples.

Results

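The cadherin and protocadherin genes are a family of calcium-dependent adhesion proteins on the cell surface, and 55 of them were measured here among 18820 genes with a probe set of their own. They were chosen by name: every single-gene symbol that starts with Pcdh, or with Cdh and a digit, apart from Pcdh15 and Cdh5, each gene standing by its probe set with the highest mean over the 12 animals. Of the 55, 22 were clustered protocadherins, all of them Pcdhb genes, and 33 were classical and other cadherins or protocadherins outside the clusters. The Pcdha genes were measured only by 1 probe set that they share, for which no value is given, and the Pcdhg genes were not analysed here. The animals were C57BL/6N mice of 12 weeks, and the tissue was micro-dissected medial prefrontal cortex. In the poly(I:C) group (n = 6) the mothers were injected intravenously with 5 mg/kg of poly(I:C), an artificial double-stranded RNA used to mimic viral infection, on gestation day 17. In the control group (n = 6) the mothers were given saline by that route on that day. Each animal was measured on 1 Affymetrix array, and all of them had also been through behavioural tests in adulthood. The labels name neither litter, sex nor array strip, so the p-values rest on the spread among these 12 animals, of which some may be littermates.

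Classical cadherins bind the same or a related cadherin on the neighbouring cell through their outermost extracellular repeat and are tied to the actin cytoskeleton by catenins. Type I members such as N-cadherin hold synapses and the ventricular lining together, whereas the type II members are expressed in restricted sets of neurons and help to sort cells and match synaptic partners. Protocadherins lack the catenin-binding tail. The clustered protocadherins lie in tandem on 1 chromosome, each neuron uses a small choice of them, and the combination serves as an identity tag through which branches of the same neuron avoid one another. The delta protocadherins outside the clusters act in axon growth, cell migration and synapse remodelling.

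Values are log2 expression per probe set, so a difference of 1 is a doubling. Array medians over the tested probe sets lay between 5.77 and 5.83. In limma, an adjusted p under 0.05 was reached by 653 of 23099 probe sets (2.83%), which is what "passed", "rose" and "fell" refer to throughout. Of these 467 were higher after poly(I:C) (2.02%) and 186 lower (0.805%). The split was 387 higher and 247 lower after median centring, and 239 higher and 285 lower after quantile normalization. At an unadjusted p under 0.05 stood 19.1% of probe sets (11.7% higher and 7.33% lower), the groups did not overlap in 2.37%, and the poly(I:C) mean was the higher one in 52.0%. Of the markers of the labelled tissue, 9 of 9 upper-layer, 8 of 10 deep-layer, 10 of 10 interneuron and 10 of 10 astrocyte genes lay at or above the median of brightness. Of those from outside it, 7 of 10 striatal, 6 of 10 meningeal and 0 of 8 choroid plexus genes did; brightness also depends on the probes.

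Cdh12 and Cdh10, a pair of neighbouring type II cadherin genes expressed in neurons, rose in the poly(I:C) group, and they were the only ones among the 55 to pass. That is 2 of 55, or 3.64%, a share near the 2.83% of all probe sets; both were higher, where 2.02% of probe sets were higher and 0.805% lower. Both genes were bright, and among the 11550 probe sets at or above the median of brightness 868 (7.52%) passed when tested alone. They were also the only ones whose groups did not overlap, again 3.64% of the 55, against 2.37% of all probe sets. Cdh12 (probe set 10423258) had a lowest value of 7.86, a median of 7.89 and a highest value of 7.97 in the poly(I:C) animals, against 7.52, 7.59 and 7.73 in the controls. Every poly(I:C) animal therefore lay above every control, and the poly(I:C) animals also lay closer together. The means were 7.90 ± 0.04 after poly(I:C) and 7.62 ± 0.09 in controls (SD, n = 6 each), a log2 difference of 0.28 ± 0.04 SE or 1.22-fold (limma adjusted p = 0.0030). Cdh10 (probe set 10423243) had a lowest value of 8.20, a median of 8.33 and a highest value of 8.37 in the poly(I:C) animals, against 7.999, 8.16 and 8.20 in the controls. Here the groups only just stayed apart, with poly(I:C) 5 at 8.202 above control 6 at 8.195. The difference was 0.17 ± 0.04 SE or 1.13-fold (limma adjusted p = 0.034).

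The calls of both genes differed in how far they rested on single animals. Cdh12 passed in all 23 other settings tried, with differences of 0.25 to 0.31 and limma adjusted p of 0.0019 to 0.038. Cdh10 passed in 13 of 23. Its call was lost when any one of controls 1, 2 and 3 or of poly(I:C) animals 1, 3, 4 and 6 was left out, after quantile normalization, without variance moderation and with all rows of the table tested, with limma adjusted p between 0.063 and 0.084. Its difference stayed between 0.14 and 0.20 throughout.

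Cdh12 and Cdh10 stand in a run of type II cadherin genes on chromosome 15. In the RefSeq table of GRCm38.p6 the order is Cdh6, Cdh9, Cdh10, Cdh12 and Cdh18. Each gap from Cdh6 to Cdh12 held 0 other protein-coding genes, and the gap between Cdh12 and Cdh18 held 1. The other members of the run did not pass. Cdh9, which in mice is needed for the synapses of dentate granule cells onto CA3 neurons, ranged from 7.10 to 7.59 in the poly(I:C) animals with a median of 7.20, against 7.10 to 7.40 with a median of 7.25 in the controls. Its spread in the poly(I:C) group was large because poly(I:C) 5 and poly(I:C) 6 lay at 7.59 and 7.54 and the other 4 between 7.10 and 7.23. The same 2 animals had the highest values of Cdh18, 7.38 and 7.37. Cdh18 differed by 0.02 ± 0.04 SE (95% interval -0.06 to 0.10), Cdh9 by 0.05 ± 0.08 (-0.12 to 0.21) and Cdh6 by 0.04 ± 0.04 (-0.04 to 0.12). A second, dimmer probe set of Cdh18 differed by -0.05.

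**Figure D1:**
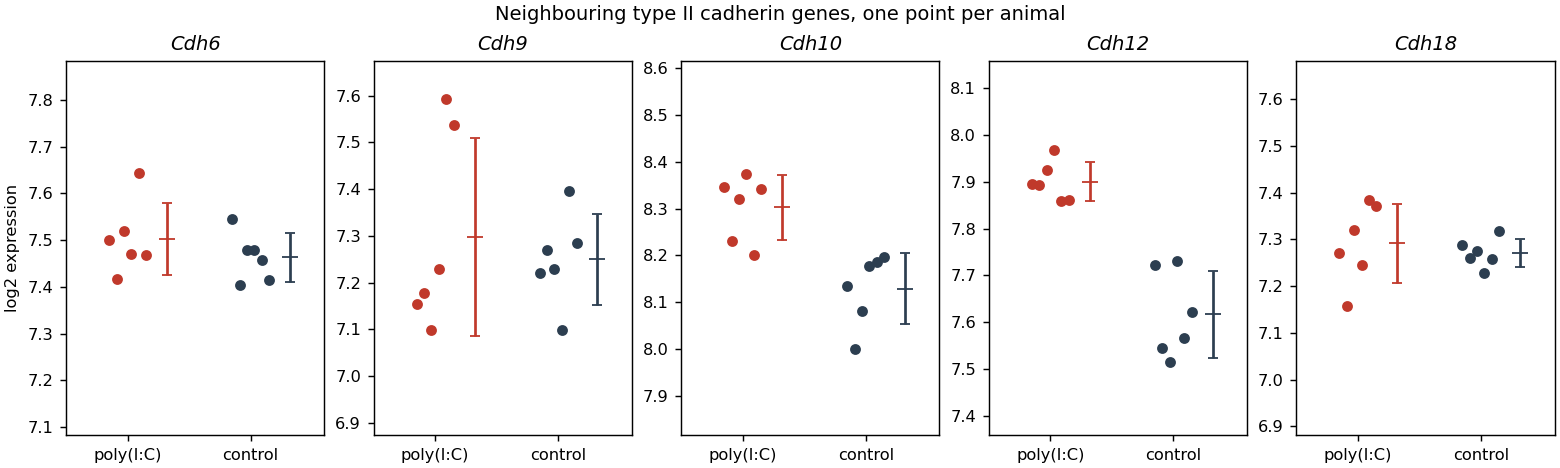
Log2 expression of 5 type II cadherin genes in the order in which they neighbour each other (vertical axes, each spanning the same width on the log2 scale), with 1 point for each poly(I:C) animal (red, left) and each control (dark, right) and bars for the mean ± SD (n = 6). The groups are apart for Cdh10 and Cdh12 and overlap for Cdh6, Cdh9 and Cdh18.

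The start regions of both genes that rose are shown because they neighbour each other and moved the same way. They are RefSeq windows of GRCm38.p6, from 250 bases before to 50 bases after the gene start, given 5′ to 3′ on the plus strand with CpG dinucleotides, the sites of DNA methylation, in capitals. Cdh12 lies at chr15:21111202-21111501 and Cdh10 at chr15:18820079-18820378.
Cdh12: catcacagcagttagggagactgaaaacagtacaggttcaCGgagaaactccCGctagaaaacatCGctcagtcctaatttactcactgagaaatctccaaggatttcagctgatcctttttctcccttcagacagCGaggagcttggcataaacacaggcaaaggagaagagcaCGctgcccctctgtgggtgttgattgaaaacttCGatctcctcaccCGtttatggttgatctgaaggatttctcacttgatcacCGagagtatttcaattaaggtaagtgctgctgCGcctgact
Cdh10: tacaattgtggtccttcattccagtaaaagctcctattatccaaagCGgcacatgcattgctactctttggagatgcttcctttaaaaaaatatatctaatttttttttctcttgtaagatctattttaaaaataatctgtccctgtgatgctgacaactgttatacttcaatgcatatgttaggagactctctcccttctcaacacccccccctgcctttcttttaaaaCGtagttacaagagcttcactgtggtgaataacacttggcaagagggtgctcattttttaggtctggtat
The Cdh12 window held 9 CpG dinucleotides and 46.7% G and C, and the Cdh10 window 2 and 37.7%, against a median of 7 CpG (quartiles 3 and 20) over 32851 windows of the same length. On both strands, neither window held the TATA box core TATAAA, found in 13.6% of all windows, or the core CCAAT, found in 37.4%. They also lacked the GC box core GGGCGG (35.7% of windows), the E-box palindrome CACGTG (7.15%) and the cyclic AMP response element palindrome TGACGTCA (1.79%). The other 3 genes of the run held a motif, with 8 CpG and CCAAT for Cdh9, 8 and GGGCGG for Cdh6, and 12 and CCAAT for Cdh18. The windows of the remaining type II genes in the table had 18 CpG for Cdh20, 21 for Cdh8, 30 for Cdh24 and 38 for Cdh22. Cdh7 had 3 windows with 18, 19 and 4 CpG, of which the last also held none of these motifs. The share of all windows that lack every one of these motifs is not given. A link between the motifs and the rise was not tested.

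Among the type II cadherins as a whole, 11 of 12 had higher means after poly(I:C), with a median difference of 0.08, against 52.0% with a higher mean and a median difference of 0.003 over all probe sets. Of the 12, 11 were at or above the median of brightness, and bright probe sets leaned the same way: among these 11, 10 had higher means with a median difference of 0.06, against 65.7% with a higher mean and a median difference of 0.03 over the 11550 bright probe sets. After quantile normalization 10 of 12 had higher means, against 43.1% of all probe sets. Besides Cdh12 and Cdh10, 4 were at an unadjusted p under 0.05 without passing, so that 6 of 12 stood there in all, against 19.1% of probe sets. Among the bright ones it was 5 of 11, against 24.6%. With all probe sets of a gene averaged, 10 of 12 had higher means with a median difference of 0.06. In that setting 5 stood at an unadjusted p under 0.05. Cdh7 ranged from 7.22 to 7.43 with a median of 7.34 in the poly(I:C) animals, against 7.11 to 7.30 with a median of 7.17 in the controls. Only control 6 reached into the range of the poly(I:C) animals, and the difference was 0.15 ± 0.04 SE (limma adjusted p = 0.070). Cdh7 passed in 3 of 23 other settings. These were without control 6, without poly(I:C) 2 and among the brighter 50% of probe sets (limma adjusted p = 0.048, 0.041 and 0.047).

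Cdh8 and Cdh11, both known from excitatory synapses, behaved alike in size. Cdh8 ranged from 7.68 to 7.93 with a median of 7.89 in the poly(I:C) animals, against 7.69 to 7.81 with a median of 7.76 in the controls. All poly(I:C) animals except poly(I:C) 5 lay above the highest control. The difference was 0.10 ± 0.04 SE (limma adjusted p = 0.17). It passed in 1 of 23 other settings, the one without poly(I:C) 5 (0.14, limma adjusted p = 0.034). That setting leaves out the very animal that went against the difference. Cdh11 ranged from 9.10 to 9.35 with a median of 9.26 in the poly(I:C) animals, against 9.08 to 9.21 with a median of 9.16 in the controls. Here poly(I:C) 2 was the exception and the other 5 exceeded every control, with a difference of 0.10 ± 0.04 SE (limma adjusted p = 0.17). Cdh11 likewise passed in 1 of 23 other settings, the one without its exception, poly(I:C) 2 (0.13, limma adjusted p = 0.045).

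Cdh24 differed by 0.11 ± 0.04 SE on its brightest probe set (limma adjusted p = 0.12), while its other probe set differed by -0.04 ± 0.03. The mean of both differed by 0.03, so the direction of Cdh24 was carried by 1 probe set. Cdh19, a cadherin of glial and Schwann cell precursors, differed by 0.06 ± 0.06 SE and Cdh20 by 0.05 ± 0.03, with 4 of 6 poly(I:C) animals above the highest control for Cdh20 (6.46). Cdh22 was the type II member with the lower mean after poly(I:C), by -0.01 ± 0.05.

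**Figure D2:**
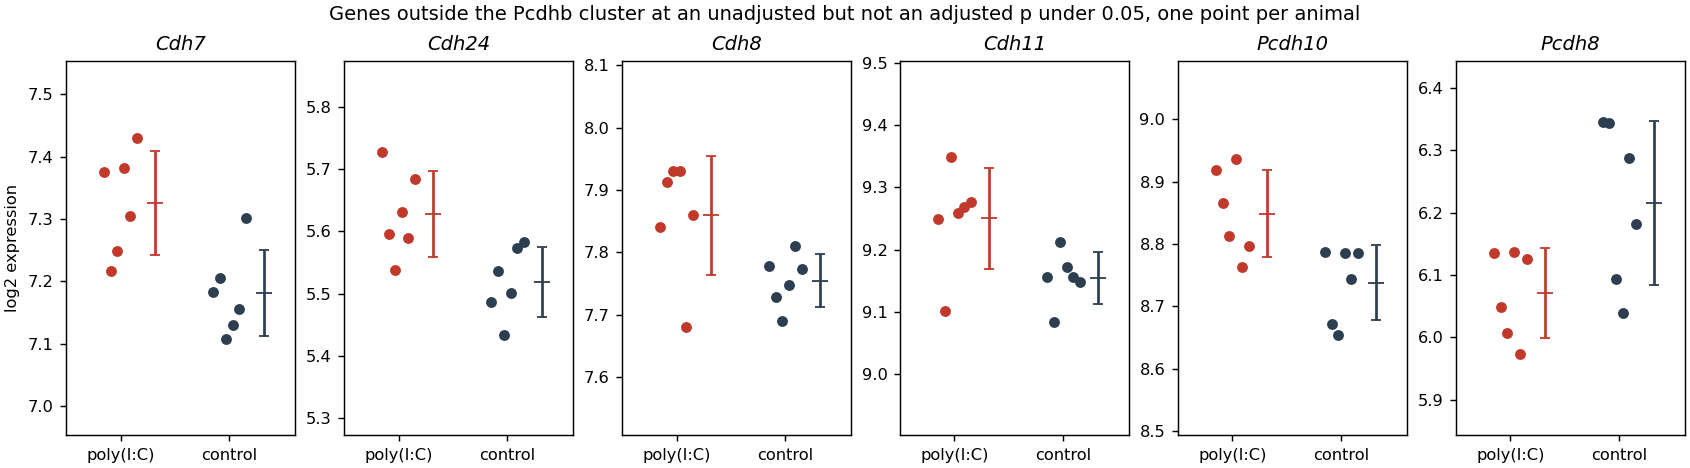
Log2 expression (vertical axes, each spanning the same width) of 6 genes with an unadjusted p under 0.05 that did not pass, with 1 point for each poly(I:C) animal (red, left) and each control (dark, right) and bars for the mean ± SD (n = 6). Cdh7, Cdh24, Cdh8, Cdh11 and Pcdh10 have higher means and Pcdh8 a lower mean after poly(I:C), and in each the groups overlap.

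The type I cadherins held none that passed, and 2 of 5 had higher means. Cdh2, the N-cadherin of neuronal synapses and neuroepithelium, had a lowest value of 8.90, a median of 8.96 and a highest value of 9.03 in the poly(I:C) animals, against 8.90, 8.95 and 9.00 in the controls. The groups covered the same range, and the 95% interval of the difference ran from -0.05 to 0.08. Cdh1, the E-cadherin of epithelia, differed by 0.02 ± 0.04 SE. Cdh4, the retinal cadherin, had a median of 7.37 in the poly(I:C) animals and 7.43 in the controls. All 6 poly(I:C) animals lay below the control mean of 7.46, with a difference of -0.07 ± 0.04 SE (limma adjusted p = 0.38). Cdh3 and Cdh15, named to complete the group, differed by -0.05 and -0.07.

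Cdh13, the T-cadherin, which lacks a transmembrane part and is anchored by a lipid, had a median of 8.65 in the poly(I:C) animals (8.59 to 8.81), against 8.82 in the controls (8.58 to 8.91). The groups overlapped, with 2 of 6 poly(I:C) animals above the control mean, and the difference was -0.11 ± 0.05 SE (limma adjusted p = 0.29). Cdh16, Cdh17, Cdh23 and Cdh26, cadherins of epithelia and the inner ear, had differences between -0.06 and -0.02. Cdh16 and Cdh17 lay below the 25th percentile of brightness, near the floor of the arrays.

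**Figure D3:**
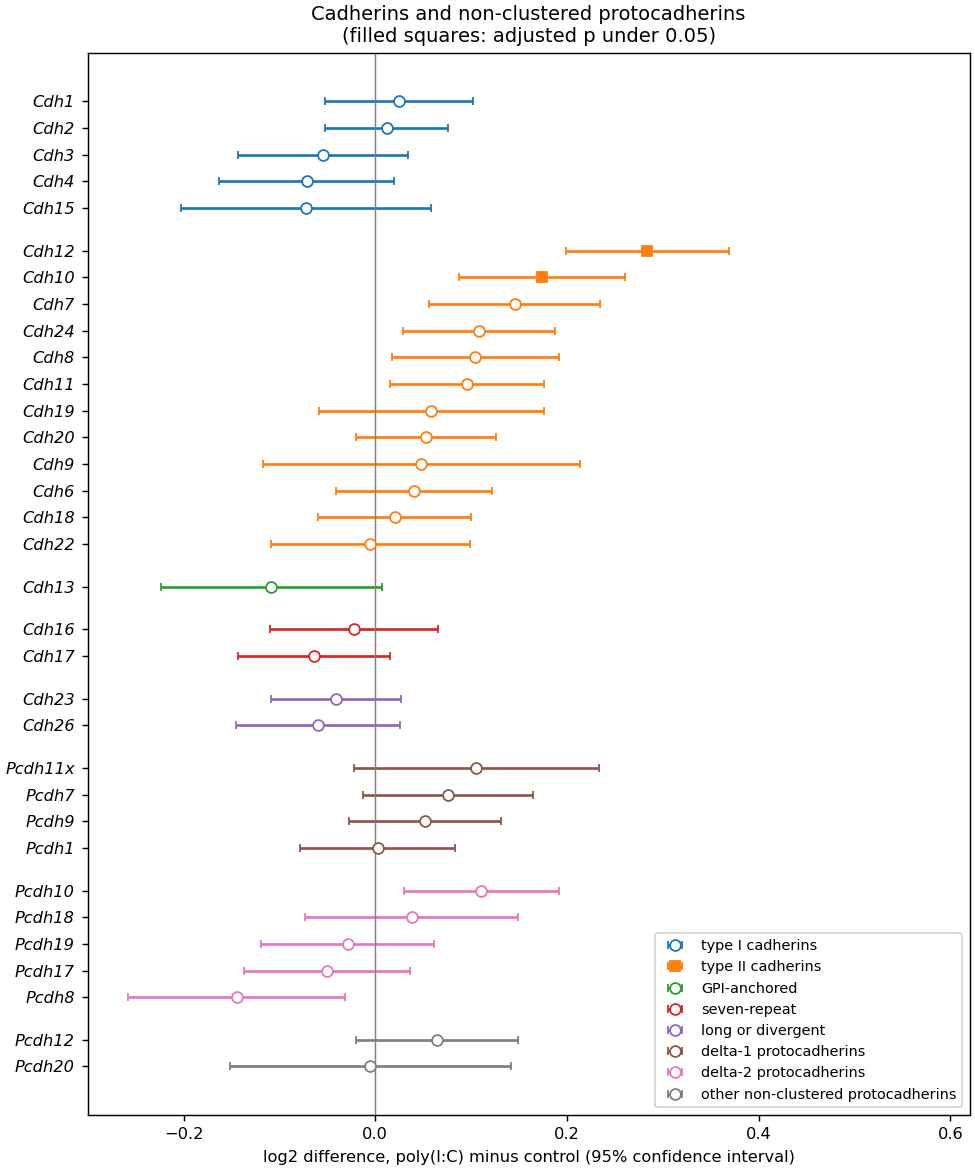
Log2 difference, poly(I:C) minus control, with its 95% confidence interval (horizontal axis), for the 33 cadherins and non-clustered protocadherins grouped by subfamily (colour). Cdh12 and Cdh10 are the filled squares, past an adjusted p of 0.05, and 11 of the 12 type II cadherins lie to the right of 0.

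Of the 11 protocadherins outside the clusters none passed, with 2 at an unadjusted p under 0.05 and in opposite directions. Both were delta-2 protocadherins. Pcdh10, which guides growing axons of the forebrain, ranged from 8.76 to 8.94 with a median of 8.84 in the poly(I:C) animals, against 8.65 to 8.79 with a median of 8.76 in the controls. The poly(I:C) animals other than poly(I:C) 5 exceeded every control, and the difference was 0.11 ± 0.04 SE (limma adjusted p = 0.12). Pcdh8, known in rats as arcadlin, which neurons induce upon activity and which acts in the internalization of N-cadherin, ranged from 5.97 to 6.14 with a median of 6.09 in the poly(I:C) animals, against 6.04 to 6.35 with a median of 6.24 in the controls. All 6 poly(I:C) animals lay below the control mean of 6.22, with a difference of -0.14 ± 0.05 SE (adjusted p = 0.15), and a dimmer probe set of the gene differed by -0.08 ± 0.04. Neither gene passed in any of the 23 other settings.

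The remaining delta-2 members differed by -0.05 ± 0.04 SE for Pcdh17, which acts in corticobasal ganglia circuits, by -0.03 ± 0.04 for the X-linked Pcdh19 and by 0.04 ± 0.05 for Pcdh18, added to complete the group. The delta-1 protocadherins all had means at or above those of controls: Pcdh7 differed by 0.08 ± 0.04 SE, Pcdh9 by 0.05 ± 0.04 and 0.07 ± 0.04 on its 2 probe sets, and Pcdh11x and Pcdh1, which complete that group, by 0.11 and 0.002. Pcdh11x had the widest interval of these, from -0.02 to 0.23. Pcdh12, of endothelial cells, and Pcdh20 differed by 0.06 and -0.01.

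None of the 22 Pcdhb genes passed, and 18 of them had higher means after poly(I:C), against 52.0% of all probe sets. At an unadjusted p under 0.05 stood 6 of 22, or 27.3%, of which 5 were higher and 1 lower, against 19.1% of probe sets (11.7% higher, 7.33% lower). The median difference was 0.03 (range -0.10 to 0.15), against 0.003 over all probe sets. The genes share long stretches of sequence and are intronless, so probes of 1 gene may also bind transcripts of another, which was not measured here, and their values may not be independent. They were also dim, with 2 of 22 at or above the median of brightness and 3 below its 25th percentile, and they varied more within groups than usual, with a median SD of 0.10 against 0.07 over all probe sets. The 52.0% includes bright probe sets, of which 65.7% had higher means, so it is not matched to the brightness of the Pcdhb genes. A share over dim probe sets alone is not given.

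Among the single Pcdhb genes, Pcdhb21 ranged from 4.77 to 5.02 with a median of 4.85 in the poly(I:C) animals, against 4.69 to 4.78 with a median of 4.75 in the controls. The poly(I:C) animals other than poly(I:C) 5 exceeded every control, and the difference was 0.13 ± 0.04 SE (limma adjusted p = 0.098). Pcdhb4 ranged from 5.74 to 5.98 with a median of 5.86 in the poly(I:C) animals, against 5.57 to 5.78 with a median of 5.75 in the controls. Again only poly(I:C) 5 fell within the control range, and the difference was 0.14 ± 0.04 SE (adjusted p = 0.10). Pcdhb8 had the largest difference of the cluster, 0.15 ± 0.06 SE, with wider and more overlapping groups: 5.08 to 5.41 in the poly(I:C) animals and 4.86 to 5.19 in the controls (adjusted p = 0.185). Pcdhb2 and Pcdhb20 differed by 0.12 ± 0.05 and 0.07 ± 0.03 (adjusted p = 0.24 for both).

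Pcdhb1, at the start of the cluster, went the other way, with a range of 3.13 to 3.29 in the poly(I:C) animals and 3.27 to 3.44 in the controls (difference -0.10 ± 0.04 SE, limma adjusted p = 0.17). Its probe set lay at the 5.64th percentile of brightness, where little signal stands above the array floor. Pcdhb6 and Pcdhb7, neighbours in the cluster, differed by -0.07 ± 0.04 and -0.08 ± 0.06, and Pcdhb12, named as the last one with a lower mean, by -0.05 ± 0.08. Pcdhb15, Pcdhb5 and Pcdhb3 differed by 0.11 ± 0.05, 0.07 ± 0.04 and 0.07 ± 0.05. The remaining Pcdhb genes, Pcdhb12 included, ranged from -0.05 to 0.07, with adjusted p of 0.49 or more.

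Single animals often held the extreme values of the Pcdhb genes, but not always in 1 direction. Control 5 was the highest control for 13 of the 22, and poly(I:C) 6 the lowest poly(I:C) animal for 7, while poly(I:C) 5 was the highest for 6 and the lowest for 4. The mean log2 level over the 22 genes was between 5.04 and 5.13 in the poly(I:C) animals and between 5.01 and 5.16 in the controls, with control 5 the highest of all 12. Without control 5 the median difference was 0.06 and 19 of 22 means were higher, and without controls 5 and 6 together 0.07 and 19. Without control 2, the control with the lowest Pcdhb mean, the median difference was 0.01 and 13 of 22 means were higher. Under quantile normalization 18 of 22 means stayed higher, with a median difference of 0.02.

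**Figure D4:**
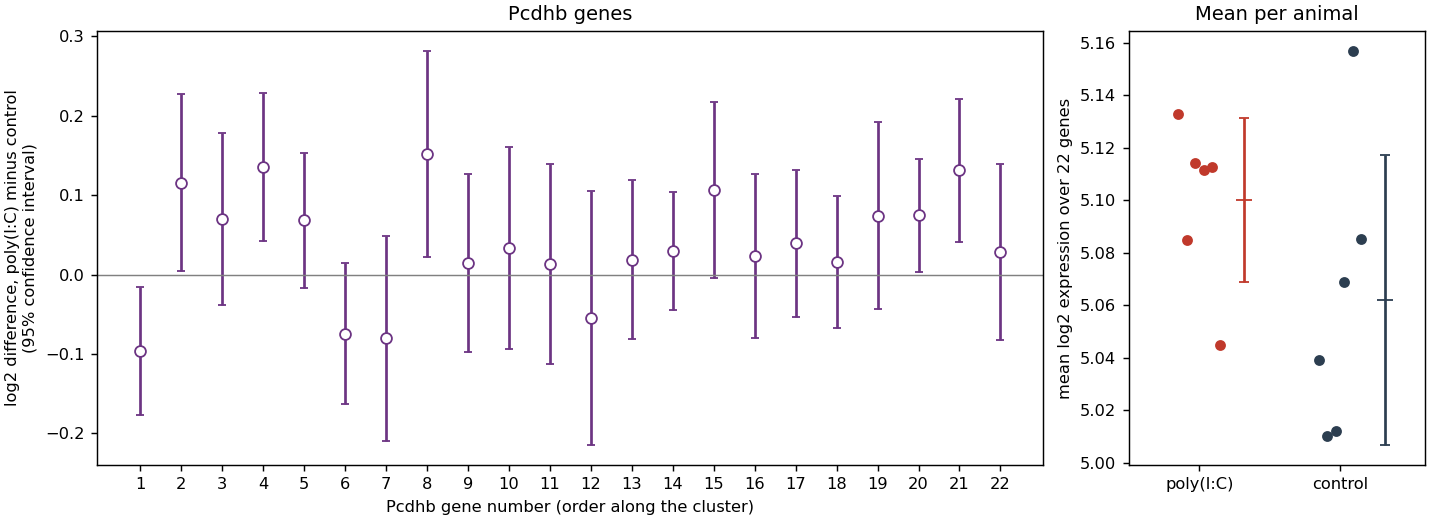
Left, log2 difference, poly(I:C) minus control, with its 95% confidence interval (vertical axis) for Pcdhb1 to Pcdhb22 in their order along the cluster (horizontal axis); none passed, and 18 of 22 lie above 0. Right, the mean log2 expression over the 22 genes for each poly(I:C) animal (red) and each control (dark) with bars for the mean ± SD (n = 6), where the groups overlap and control 5 is the highest at 5.16.

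Genes that work with cadherins and protocadherins were counted in 5 lists. Of 101 distinct genes measured, 2 rose and none fell, or 1.98%, against 2.83% of all probe sets. Celsr3, a seven-pass cadherin that guides long axon tracts, had a median of 7.47 in the poly(I:C) animals (7.34 to 7.70), against 7.27 in the controls (7.06 to 7.38). Its difference was 0.24 ± 0.06 SE (limma adjusted p = 0.0498), a call kept in 8 of 22 other settings and lost, among others, when any one of controls 1, 2, 3 and 6 or of poly(I:C) animals 1, 2, 3, 4 and 6 was left out. Fmr1, whose product binds neuronal mRNAs and acts with Pcdh10 in synapse elimination in mice, rose by 0.14 ± 0.04 SE without overlap between groups (adjusted p = 0.0490), and passed in 5 of 22 other settings; of the 12 animals left out one at a time, only the setting without poly(I:C) 2 kept the call. Both calls stood at the edge of the threshold. The groups did not overlap in 2 of the 101 genes, against 2.37% of all probe sets.

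No list of partners held a further call. Of 21 other members of the cadherin superfamily 8 had higher means, and Celsr1, of planar cell polarity, differed by -0.15 ± 0.04 SE (limma adjusted p = 0.058). Of 24 catenins and adaptors, 20 of them bright, 15 (62.5%) had higher means, a share near the 65.7% of all bright probe sets. Ctnnal1 differed by 0.14 ± 0.04 (limma adjusted p = 0.064) and Ctnnd1, the p120-catenin that keeps cadherins at the membrane, by 0.14 ± 0.05 (0.12). Of 20 regulators of the protocadherin clusters, mainly CTCF, cohesin and chromatin enzymes, 18 had higher means with a median difference of 0.04. Since 18 of the 20 were bright, these values stand beside the 65.7% with a higher mean and the median difference of 0.03 over all bright probe sets. Among them were Setdb1, a histone methyltransferase that shapes the folding of the clusters in mouse neurons, at 0.16 ± 0.05 (adjusted p = 0.067) and the cohesin factor Pds5a at 0.10 ± 0.03 (0.093). Of 23 signalling partners, all of them bright, 15 (65.2%) had higher means, again near the 65.7%. Lzts2 differed by -0.10 ± 0.03 without overlap (limma adjusted p = 0.069). Of 13 proteases 5 had higher means, with Pcsk6 at -0.15 ± 0.05 (0.095) and Mmp14 at -0.13 ± 0.05 (0.12).

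Markers of the cell types and neighbouring tissue in the dissection moved with the groups as well. In bulk tissue, fewer cells of a type and less RNA per cell cannot be told apart. Of 12 myelin markers all had lower means and 6 fell, with list means of 6.73 to 7.22 in the poly(I:C) animals, against 7.13 to 7.504 in the controls. Of 10 striatal markers all had lower means and 1 fell (Ppp1r1b), with list means of 6.32 to 6.50, against 6.36 to 7.10 in the controls. Of 10 deep-layer markers all had lower means and 1, Bcl11b, fell (6.73 to 7.08, against 7.00 to 7.11 in the controls). Of 9 upper-layer markers 8 had higher means with none passing (7.84 to 7.97, against 7.76 to 7.87 in the controls). All 9 were bright, and 65.7% of bright probe sets had higher means. Lists for interneurons, astrocytes, microglia, endothelium, meninges and choroid plexus held no call, with list mean differences from -0.10 to 0.003. Over all marker lists together 8 of 97 distinct genes passed (8.25%), all lower, against 2.83% of all probe sets (0.805% lower). The striatal marker Isl1, the meningeal marker Lum and the choroid plexus markers Kcne2, Otx2, Slc4a5 and Sostdc1 lay below the 25th percentile of brightness. Control 5 had the highest striatal list mean. In the setting without controls 5 and 6 together, Cdh12 differed by 0.27 and Cdh10 by 0.20 and both passed (limma adjusted p = 0.012 and 0.031). For Cdh10, controls 5 and 6 held the highest control values (8.19 and 8.20), so leaving them out widens its difference by construction. Leaving out controls 5 and 6 does not test for striatal tissue, since the striatal markers of the other animals were not taken into account. The part of striatal, layer and myelin markers in the cadherin differences was not tested.

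**Figure D5:**
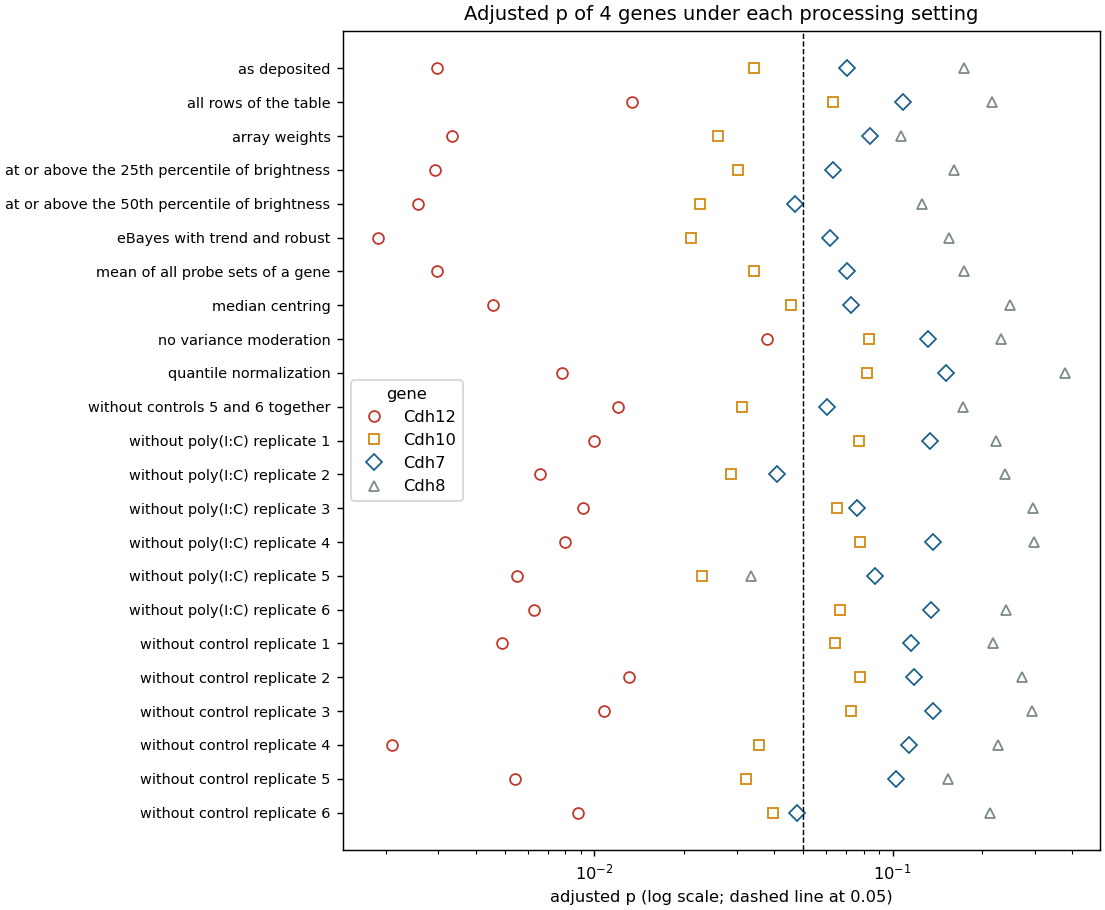
Adjusted p from limma (horizontal axis, log scale, dashed line at 0.05) for Cdh12, Cdh10, Cdh7 and Cdh8 under each setting shown (vertical axis). These are the values as deposited and each other setting except the one with the replicate number as a block. Cdh12 lies left of the line in every setting shown, Cdh10 on both sides of it, and Cdh7 and Cdh8 mostly to its right.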

How the data were processed

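Total RNA was measured on Affymetrix Mouse Gene 1.1 ST arrays, per the labels' protocols. The authors deposited log2 expression values, a unit read from their range. The submitters' processing notes list RMA and Partek 6.6, without saying what each did; no genome build is given in the sources read for this work. RMA makes array distributions alike and compresses differences near the floor.

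Gene names came from the annotation of the array platform, with symbols updated by gene ID to RefSeq (21185 of 21218 single-gene probe sets matched). The 23099 with at least 1 gene entered a two-sided limma 3.58.1 test (R 4.3.3; lmFit, then eBayes) of poly(I:C) minus control without covariates, with Benjamini-Hochberg adjustment over all of them; errors are moderated standard errors (SE). Promoter windows came from RefSeq, where 21 of the 55 genes matched. Python 3.11.15 and matplotlib 3.10.9 drew the plots.

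Genes named are those past the adjusted threshold, the 10 lowest p and 3 largest differences each way in both classes, a list of well-known members, and up to 2 per partner list. The genes and lists were chosen with earlier results of these data known. Alternatives covered normalization, filters, moderation, weights, the replicate number, the choice of probe set and leaving out animals. The number of arrays limits the precision.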

Additional observations from a re-analysis of the deposited data

Results flagged for a closer look

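In 62 groups of 6 animals (31 named genes in both groups), 2 held an animal far from the others by Dixon's criterion, where chance gives about 1 in 20. For Cdh8, poly(I:C) 5 had 7.68, with the next animal at 7.84 and the highest at 7.93. For Pcdhb7, poly(I:C) 6 had 4.81, with the next at 5.07 and the highest at 5.20.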

How the results depend on the processing

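Among 23 other settings, Cdh12 passed in all and no Pcdhb gene in any. The number of probe sets called, 653, was 414 with all rows of the table tested, 122 without variance moderation and 230 to 818 with 1 animal left out. The count of cadherins and protocadherins that passed, 2, all outside the Pcdhb cluster, was 1 with all rows, without moderation and after quantile normalization, and 1 to 4 with 1 animal left out. The number of partner genes that passed, 2, was 0 with all rows, 0 without moderation, 1 after quantile normalization (Lzts2, lower, while Celsr3 and Fmr1 did not pass), 1 without controls 5 and 6 together (Ctnnal1, while neither Celsr3 nor Fmr1 passed), 5 among the brighter 50% of probe sets, and 0 to 3 with 1 animal left out. The median difference over the 33 genes outside the cluster, 0.0245, was 0.0479 among the brighter 50%, 0.0044 after quantile normalization and 0.0123 to 0.0436 with 1 animal left out. Over all probe sets the median difference also moved, from 0.003 to 0.0263 among the brighter 50% and to -0.0098 after quantile normalization. Cdh2 reversed to -0.01126 after quantile normalization and ranged from -0.00342 (without poly(I:C) 5) to 0.02292 with 1 animal left out, and Cdh9 from -0.01114 (without poly(I:C) 5) to 0.08779. Same-numbered animals did not deviate together (r from -0.0922 to 0.1098, none of 6 highest with its own number). No pairing by number was seen, but such correlations cannot exclude one, for example by litter or array strip. With the replicate number as a block 536 probe sets, 2 cadherins and 0 partner genes passed. Except where the construction shows it (fewer animals or another number of tests), the cause was not tested. Of the 22 Pcdhb genes, 3 lay below the 25th percentile of brightness, where the array floor may limit their differences.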
